A study of Mus musculus with 12 samples.

Results

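The genes described here are 37 genes of the lysosome: 10 cysteine proteases, 3 other proteases, 7 glycosidases, 7 genes of lipid breakdown and lipid handling, 7 membrane proteins and the 3 transcription factors Tfeb, Tfe3 and Mitf. They were taken by name from the 53801 genes of 2 deposited count tables and all 37 were found in both tables. The cells came from squamous cell carcinomas of the skin in FVB mice, and 12 RNA-seq libraries, 3 in each of 4 groups, were made from sorted fractions. The first 2 groups are macrophages, sorted as CD45+ F4/80+ cells and divided into FceRIa-positive and FceRIa-negative libraries, FceRIa being the chain of an IgE receptor that holds the antibody. The other 2 groups are basal tumor cells, sorted as Rosa-YFP+ CD49f+ CD29+ cells and divided by an mScarlet reporter of TGF-beta signalling into reporter-positive and reporter-negative libraries. No treatment, age or further allele is given for any group, and the cells or promoter that drive the YFP mark are not stated in the labels. The labels do not say whether replicates came from separate mice or tumors, so every p-value measures the spread between these libraries, which may be technical.

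Lysosomes are acidic compartments in which proteases, glycosidases and lipid enzymes digest material delivered by endocytosis, phagocytosis and autophagy. A proton pump, the V-ATPase, keeps them acidic, and heavily glycosylated membrane proteins such as LAMP1 and LAMP2 line them. TFEB, TFE3 and MITF are related transcription factors that bind the E-box CACGTG in the promoters of many lysosomal genes, and their activity is known to be set largely by phosphorylation and nuclear entry, which RNA levels do not report. Macrophages are among the cells richest in lysosomes, since they engulf and digest particles.

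Total counts ran from 33704786 to 40041144 in the macrophage libraries and from 27951632 to 35088897 in the tumor cell libraries. Levels are in CPM, the counts of a gene relative to the library total after trimmed-mean scaling of each comparison, and 3 counts correspond to between 0.0698 and 0.107 CPM. The sorts were checked against 10 markers each. On a common scale the summed macrophage markers ran from 10140 to 18542 CPM in the macrophage libraries and from 27.8 to 87.8 CPM in the tumor cell libraries. Summed keratinocyte markers ran from 579 to 4138 CPM in macrophages and from 76968 to 99031 CPM in tumor cells, so transcripts of each cell type were measured in both sorts. In the tumor cells the libraries of replicates 1 and 3 were close to each other, their counts giving a chi-square of 1.62 (positive group) and 2.97 (negative group) for each degree of freedom, against 43.1 to 90.6 where one was replicate 2. In the macrophages the values were 51.3 (positive) and 63.2 (negative) for replicates 1 and 3, against 85.1 to 138 where one was replicate 2. Both macrophage count columns of replicate 2 are marked New, unlike those of replicates 1 and 3. Whether this mark bears on the values was not tested. Each comparison was fitted both unpaired and with same-numbered libraries as blocks, the second being called the paired fit. The quasi-likelihood test of edgeR gave every adjusted p below, by the Benjamini-Hochberg method over all genes tested, and a gene is called at an adjusted p under 0.05.

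Macrophages held far more RNA of these genes than tumor cells did. The 37 genes together took 4.45% ± 0.228 of all counts in FceRIa-positive and 3.23% ± 0.388 in FceRIa-negative macrophages, and 0.534% ± 0.0358 in reporter-positive and 0.498% ± 0.0396 in reporter-negative tumor cells (SD, n = 3 each). In the comparison of macrophages with tumor cells over all 12 libraries 36 of the 37 genes were called higher in macrophages and 1, Ctsl, was called lower. Of 16279 genes tested, 44.8% were called higher and 40.6% lower. The median log2 difference, macrophages minus tumor cells, was 2.83 over the 37 genes and 0.09 over all genes. The groups did not overlap for 33 genes that were higher in macrophages, against 37% of all genes, and for 0 that were lower, against 33.8%. Cell type, sort and deposited table coincide in this design and cannot be told apart.

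Per length, the order of the genes differed between the cell types. Levels per length are in CPM per kilobase of exon, as means over the 6 libraries of a cell type, both groups together. In macrophages the highest were Ctss, a protease that trims the MHC class II invariant chain, at 3769 ± 498 (SD, n = 6), and Psap, the precursor of the saposins that help degrade sphingolipids, at 2329 ± 485. Next came the asparaginyl endopeptidase gene Lgmn at 1140.3 ± 475, the carboxypeptidase gene Ctsz at 963 ± 149 and the broadly expressed protease gene Ctsb at 799.5 ± 339. Lgmn, Ctsz and Ctsb overlapped each other across the libraries of both groups, and their order depended on the group. Lgmn averaged 1535, Ctsb 1101 and Ctsz 1060 in FceRIa-positive libraries. In FceRIa-negative libraries Ctsz averaged 865, Lgmn 745 and Ctsb 498. In tumor cells the highest were Lamp1 at 211 ± 20.1, the aspartic protease gene Ctsd at 201 ± 38.5 and Psap at 196 ± 19.7, which overlapped. Npc2, a cholesterol-binding protein of the lysosome lumen, followed at 127 ± 10.7 and Ctsb at 107 ± 15.5.

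**Figure D1:**
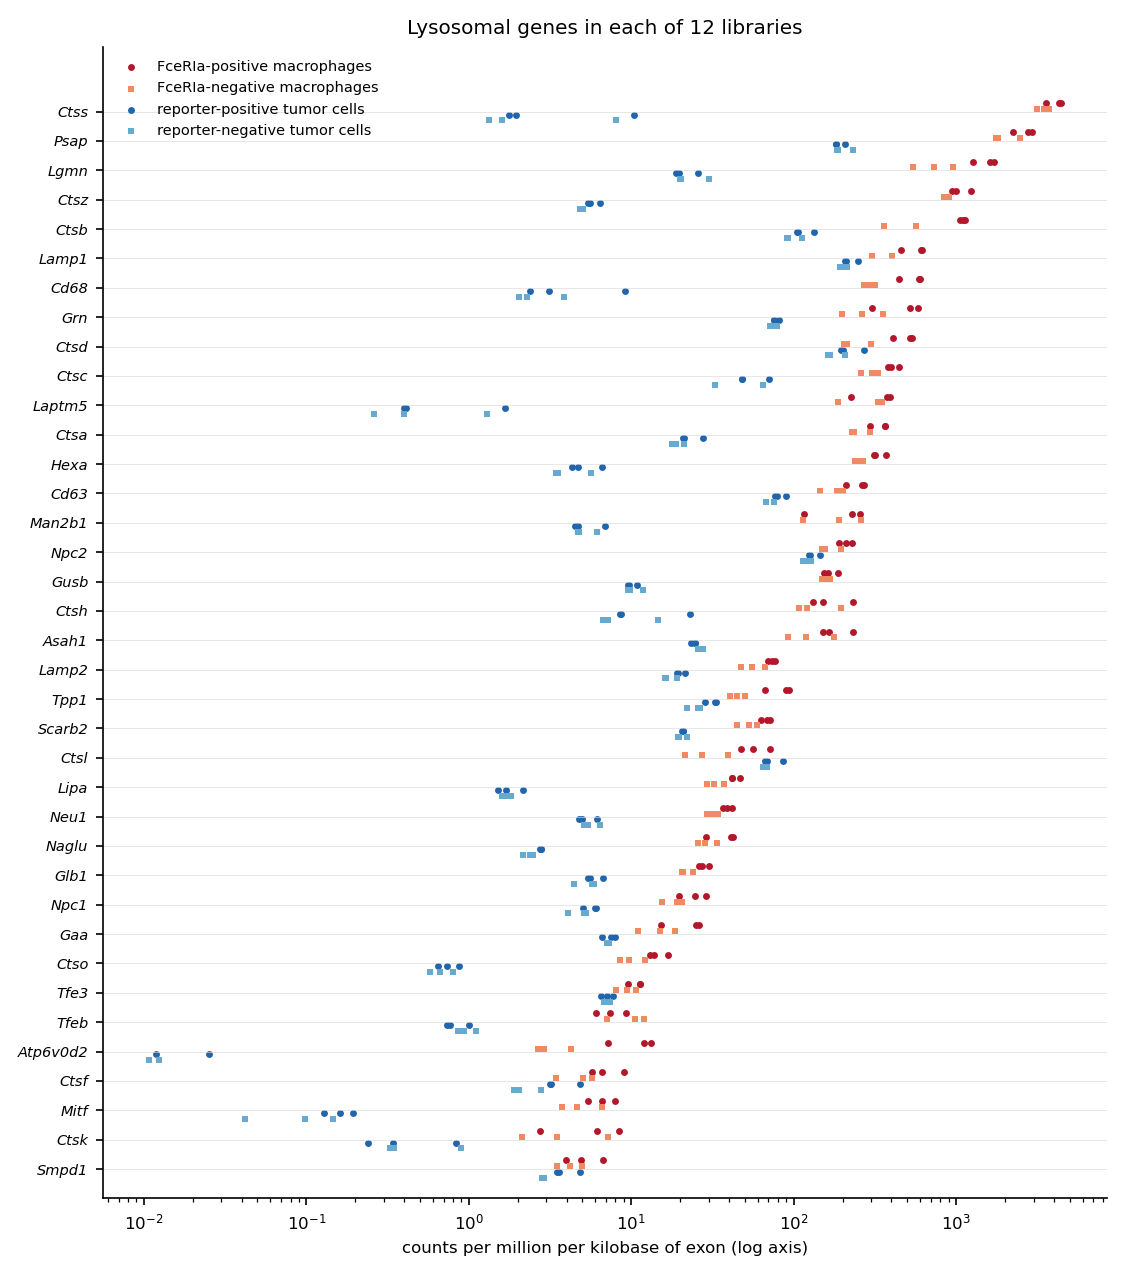
Level of each of the 37 genes in each of 12 libraries, in CPM per kilobase of exon on a log axis, ordered by the macrophage mean. Red and orange symbols (macrophages) lie to the right of blue symbols (tumor cells) for most genes, by wide margins at Ctss, Laptm5, Ctsz and Atp6v0d2. For Ctsl the macrophage mean lies to the left, with symbols of the cell types overlapping. Libraries at 0, which occur for Atp6v0d2 in tumor cells alone, are not drawn.

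The low end of the order held Atp6v0d2, Mitf and Ctsk in both cell types, beside genes that differed. In macrophages the lowest per length were Atp6v0d2, a V-ATPase subunit isoform known from osteoclasts and macrophages, at 7.01 ± 4.58, Ctsf at 5.93 ± 1.84, Mitf at 5.84 ± 1.53, Ctsk at 5.01 ± 2.58 and the acid sphingomyelinase gene Smpd1 at 4.70 ± 1.13 (SD, n = 6), and these 5 overlapped. The place of Atp6v0d2 depended on the group. It averaged 10.7 in FceRIa-positive libraries, above Tfeb at 7.60 there, and 3.28 in FceRIa-negative ones. In tumor cells the lowest were Laptm5, a leukocyte protein of lysosomal membranes, at 0.739 ± 0.589, the cysteine protease gene Ctso at 0.717 ± 0.110, Ctsk at 0.497 ± 0.288 and Mitf at 0.128 ± 0.0528. Atp6v0d2 had 0.0316, 0.0656 and 0 CPM in the reporter-positive and 0.0285, 0.0327 and 0 CPM in the reporter-negative tumor cell libraries. All 6 values lie under the level of 3 counts, so no fold is given for it.

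Leaving Atp6v0d2 aside, the difference between the cell types was widest for Ctss. On the log2 scale it was 9.82 ± 0.747 (SE) for Ctss, 8.72 ± 0.605 for Laptm5, 7.47 ± 0.119 for Ctsz and 6.78 ± 0.374 for Cd68, a heavily glycosylated membrane protein used as a macrophage marker. It was 5.95 ± 0.178 for Hexa, the alpha chain of beta-hexosaminidase, and 5.57 ± 0.207 for Lgmn. The transcription factors differed among themselves. Mitf was 5.54 ± 0.268 higher in macrophages, Tfeb 3.27 ± 0.165 and Tfe3 0.51 ± 0.0814 (adjusted p = 6.82e-09, 9.97e-09 and 0.000121). Of Mitf, Tfeb and Tfe3, the last was therefore the most even in level, at 10.1 ± 1.25 CPM per kilobase in macrophages and 7.07 ± 0.420 in tumor cells. Ctsl, a protease known in skin for its role in the hair follicle and epidermis, was lower in macrophages, at 285 ± 121 CPM, against 457 ± 49.1 CPM in tumor cells (SD, n = 6 each). Its log2 difference was -0.76 ± 0.155 (adjusted p = 0.000694), though the cell types overlapped. Per kilobase Ctsl averaged 58.4 CPM in FceRIa-positive and 29.4 CPM in FceRIa-negative macrophages. The means were 73.6 CPM in reporter-positive and 67.4 CPM in reporter-negative tumor cells. The smallest differences among the genes called higher were those of Smpd1 (0.47 ± 0.147), Tfe3, Npc2 (0.57 ± 0.0969) and Ctsd (0.77 ± 0.139).

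FceRIa-positive macrophages had higher RNA levels of nearly the whole set than FceRIa-negative macrophages. All 37 genes were tested, and 36 had a positive log2 difference, positive minus negative, where 49.3% of the 14988 genes tested did. The exception was Tfeb, with a negative difference as had 50.7% of all genes. The median was 0.43 over the 37 genes and -0.004 over all genes. In the unpaired fit 0 of the 37 were called in either direction, as were 0% of all genes in either direction, and the smallest adjusted p of any gene was 0.0585. At an unadjusted p under 0.05, 20 of the 37 were higher, against 8.29% of all genes, and 0 were lower, against 7.35%. DESeq2 without pairing called 13 of the 37 higher, against 4.39% of all genes, and 0 lower, against 4.04%. In the paired fit 25 were called higher, against 10.8% of all genes, and 1, Tfeb, lower, against 10.2%. The paired count higher was 13 without replicate 1, 20 without replicate 2 and 25 without replicate 3, against 4.11%, 8.66% and 11.2% of all genes in those fits, and Tfeb was not called without replicate 1 (adjusted p = 0.0894).

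Within same-numbered libraries the direction was even. In 34 of the 37 genes the positive library was higher in all 3 pairs, in 2 (Ctsk and Gusb) in 2 pairs, and in 1 (Tfeb) in none. Such pairs were not counted over all genes, so these counts have no share beside them. Groups did not overlap for 20 genes that were higher in FceRIa-positive macrophages, against 11.6% of all genes, and for 0 that were lower, against 9.78%.

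**Figure D2:**
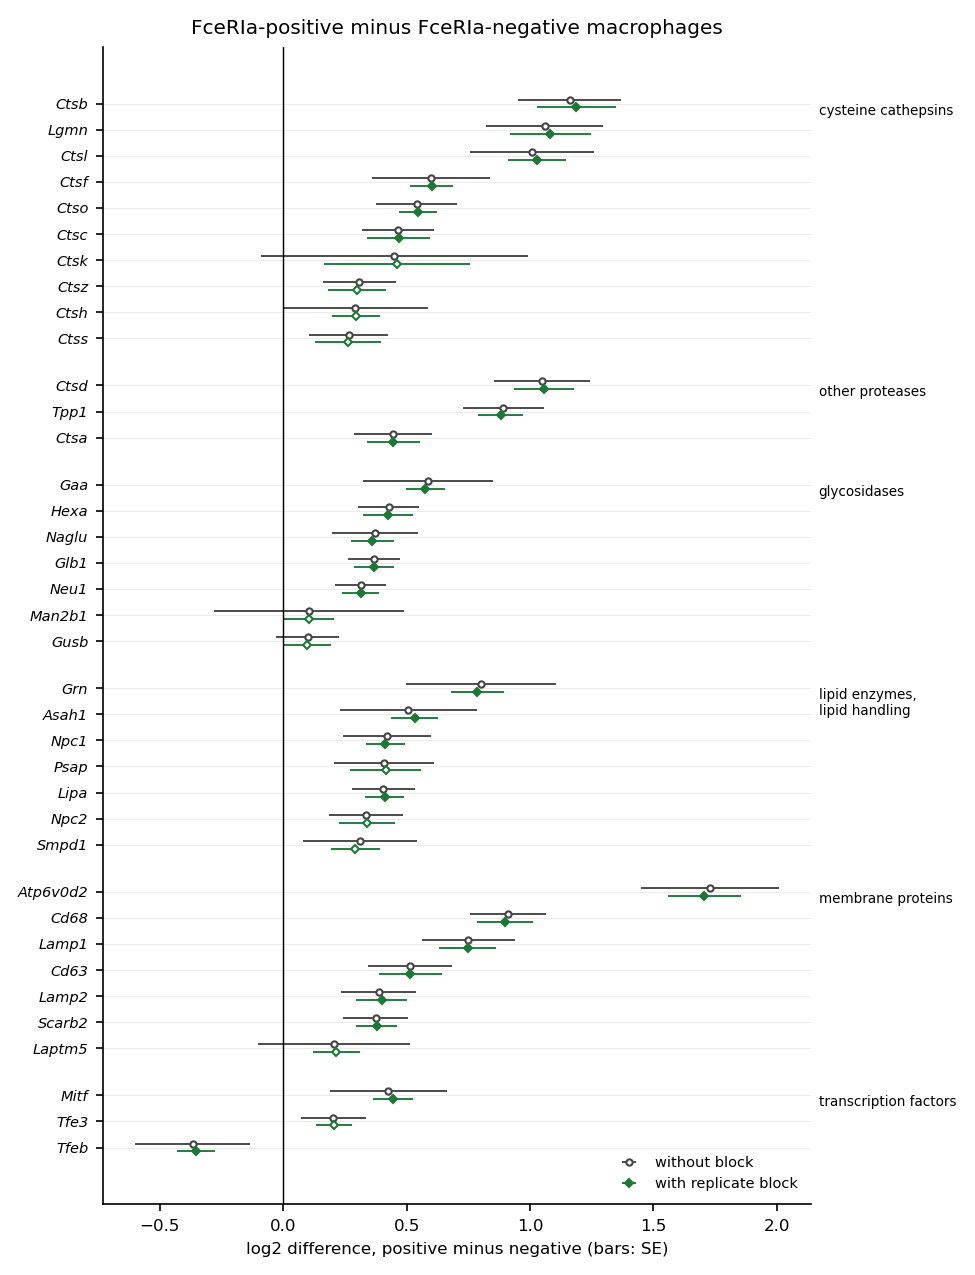
Log2 difference of each gene, FceRIa-positive minus FceRIa-negative macrophages, with SE bars, by role (n = 3 libraries a group). Grey circles are the unpaired fit and green diamonds the paired fit, filled where the adjusted p is under 0.05. No grey circle is filled, 26 diamonds are, and Tfeb alone lies left of 0.

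Of the 10 cysteine proteases, 6 rose in the paired fit (Ctsb, Lgmn, Ctsl, Ctsf, Ctso and Ctsc) and 0 fell. Ctsb, which lies on chromosome 14 from 63122462 to 63145923 (GRCm38, plus strand), had 7109, 6634 and 6889.5 CPM in FceRIa-positive libraries of replicates 1, 2 and 3, against 3445, 3525 and 2264 CPM in FceRIa-negative ones. The groups lay far apart, with a log2 difference of 1.19 ± 0.161 (SE) in the paired fit (adjusted p = 0.00190) and 1.16 ± 0.208 in the unpaired fit (adjusted p = 0.0591). Lgmn, an endopeptidase that also processes other cathepsins, had 4109, 3059 and 3878 CPM in positive against 2258, 1743 and 1301 CPM in negative libraries. Ctsl had 482, 319 and 374 CPM in positive against 258, 182 and 144 CPM in negative libraries. Neither gene's groups overlapped, and the paired log2 differences were 1.08 ± 0.165 for Lgmn and 1.03 ± 0.119 for Ctsl (adjusted p = 0.00313 and 0.000979). Ctso, a little-studied member, had 69.5, 89.5 and 73.3 CPM in positive against 50.4, 63.9 and 45.4 CPM in negative libraries. Ctso was thus lower in every negative library, with a paired log2 difference of 0.55 ± 0.0756 (adjusted p = 0.00207).

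Ctss, the highest of the 37 genes per length, was not called. It had 5022, 5984 and 6214 CPM in positive against 4784, 5155 and 4399.8 CPM in negative libraries. The groups overlapped, and the paired log2 difference of 0.26 ± 0.134 was not called (adjusted p = 0.213). Ctsk, the collagen-degrading cathepsin of osteoclasts, had 13.1, 4.26 and 9.58 CPM in positive against 11.01, 5.37 and 3.31 CPM in negative libraries. Its values varied more between replicate numbers than between groups, and neither fit called it (paired adjusted p = 0.320). Ctsz and Ctsh were not called in the paired fit, with log2 differences of 0.30 ± 0.117 and 0.30 ± 0.0976 (adjusted p = 0.115 and 0.0681). DESeq2 with the block called both.

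All 3 other proteases rose in the paired fit. Ctsd had 1274, 991 and 1296 CPM in FceRIa-positive libraries, against 712, 511 and 499.8 CPM in FceRIa-negative ones. Tpp1, an aminopeptidase whose loss in people causes a neuronal storage disease, had 501, 353 and 476 CPM in positive against 262, 215 and 239 CPM in negative libraries. Both genes' groups were apart, with paired log2 differences of 1.06 ± 0.122 for Ctsd and 0.88 ± 0.0897 for Tpp1 (adjusted p = 0.000981 and 0.000616). Ctsa, which protects beta-galactosidase and neuraminidase in a complex, was 0.45 ± 0.108 higher (adjusted p = 0.0226). Of the exon bases of Ctsd 34.4% also belong to an annotated gene of the same strand, Gm49369, and 26.8% of those of Ctsl to other genes. For Ctsa, Ctsb and Hexa the shares are 17.4%, 12.8% and 12.8%, with genes of the opposite strand. The counts of all 5 are uncertain where reads could be assigned to either gene, since the strand setting is not known.

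**Figure D3:**
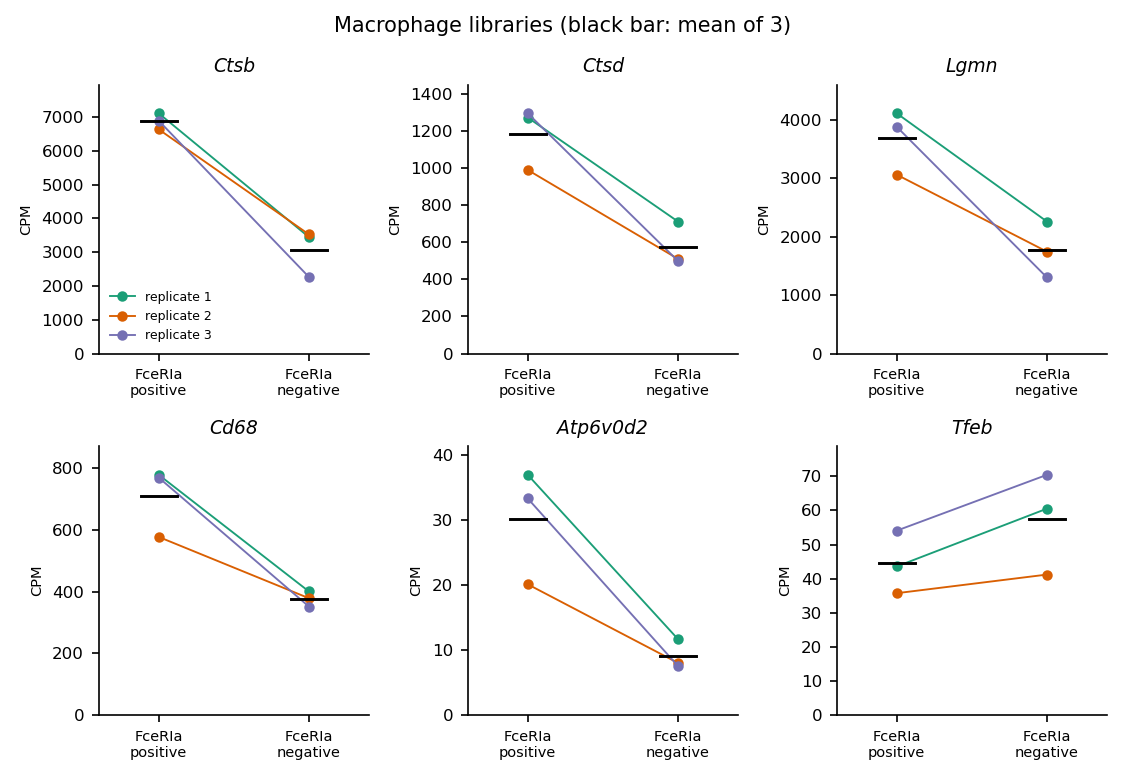
CPM of 6 genes in the macrophage libraries, FceRIa-positive at left and FceRIa-negative at right, with lines joining libraries of the same replicate number and black bars at the means of 3. In Ctsb, Ctsd, Lgmn, Cd68 and Atp6v0d2 every positive library lies above every negative one, and in Tfeb each line runs the other way while the groups overlap.

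Of the 7 glycosidases 5 rose in the paired fit (Gaa, Hexa, Naglu, Glb1 and Neu1), with log2 differences of 0.31 to 0.58. Hexa had 642, 653 and 761 CPM in positive against 541, 497 and 491 CPM in negative libraries. Glb1, the lysosomal beta-galactosidase, had 85.2, 80.7 and 93.3 CPM in positive against 72.9, 62.8 and 65.2 CPM in negative libraries. For both genes the lowest positive library lay above the highest negative one. The paired log2 difference was 0.42 ± 0.101 for Hexa and 0.37 ± 0.0794 for Glb1 (adjusted p = 0.0211 and 0.0141). The beta-glucuronidase gene Gusb (0.10 ± 0.0985) and the alpha-mannosidase gene Man2b1 (0.10 ± 0.105) were not called in the paired fit (adjusted p = 0.547 and 0.540).

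Of the 7 lipid genes 4 rose in the paired fit. Grn, the progranulin precursor, was 0.79 ± 0.107 higher (adjusted p = 0.00195), the acid ceramidase gene Asah1 0.53 ± 0.0941 (0.00600), the cholesterol exporter gene Npc1 0.41 ± 0.0790 (0.00828) and the acid lipase gene Lipa 0.41 ± 0.0792 (0.00866). Lipa had 295, 328 and 289 CPM in positive against 222, 259.7 and 207 CPM in negative libraries, which did not overlap. Psap, Npc2 and Smpd1 had differences of 0.41 ± 0.143, 0.34 ± 0.114 and 0.29 ± 0.0994 and were not called (adjusted p = 0.0789, 0.0726 and 0.0755), while DESeq2 with the block called Psap and Npc2.

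Among the 7 membrane proteins 6 rose in the paired fit, all but Laptm5. Atp6v0d2, on chromosome 4 from 19876841 to 19922605, had the widest difference of the 37 genes, with 36.96, 20.1 and 33.3 CPM in FceRIa-positive against 11.7, 8.02 and 7.55 CPM in FceRIa-negative libraries. Its log2 difference was 1.71 ± 0.148 in the paired fit (adjusted p = 0.000375) and 1.73 ± 0.281 in the unpaired fit (0.0591), a ratio of means of 3.32. Cd68 had 779, 577 and 769.7 CPM in positive against 401, 379 and 352 CPM in negative libraries. Lamp1 had 1695, 1257 and 1708 CPM in positive against 1096, 829.5 and 845 CPM in negative libraries. For each of these genes the groups were apart, and the paired log2 difference was 0.90 ± 0.114 for Cd68 and 0.75 ± 0.116 for Lamp1 (adjusted p = 0.00144 and 0.00329). Cd63, a tetraspanin of late endosomes, Lamp2 and the glucocerebrosidase receptor gene Scarb2 were 0.52 ± 0.128, 0.40 ± 0.103 and 0.38 ± 0.0831 higher (adjusted p = 0.0248, 0.0284 and 0.0150). Laptm5 was not called (0.21 ± 0.0953, adjusted p = 0.156).

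The 3 transcription factors did not move alike. Mitf, on chromosome 6 from 97807052 to 98021349, had 42.2, 51.1 and 34.6 CPM in positive against 29.0, 42.0 and 24.2 CPM in negative libraries. Tfeb, on chromosome 17 from 47737030 to 47792419, had 43.6, 35.7 and 54.1 CPM in positive against 60.5, 41.2 and 70.4 CPM in negative libraries. Tfe3, on the X chromosome, had 108, 91.9 and 107.9 CPM in positive against 100.2, 76.7 and 90.6 CPM in negative libraries. Groups overlapped for all 3, while every pair was higher in the positive library for Mitf and Tfe3 and lower for Tfeb. In the paired fit Mitf rose by 0.44 ± 0.0804 (adjusted p = 0.00662), Tfeb fell by 0.35 (SE 0.0770, adjusted p = 0.0144) and Tfe3 was not called (0.21 ± 0.0731, adjusted p = 0.0856). Without pairing the adjusted p values were 0.480 for Mitf, 0.551 for Tfeb and 0.566 for Tfe3.

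Promoters were available for 32 of the 37 genes in a RefSeq table on GRCm38.p6, which holds 250 bases before and 50 after each start. The letters CACGTG, which read the same on both strands, occurred in the promoters of 9 of the 32 genes (28.1%) and of 8.09% of 27025 genes. The 27025 are all genes with a promoter there, whether or not these cells expressed them, so the 2 shares rest on unlike sets. TCACGTGA, which contains CACGTG, occurred in 2 of 32 (6.25%, Ctsa and Ctsd) and in 304 of the 27025 genes. The 9 genes with CACGTG were Ctsa, Ctsd, Ctsf, Ctsl, Lamp1, Gaa, Glb1, Naglu and Lgmn, and 9 of 9 were called higher in FceRIa-positive macrophages in the paired fit, with unpaired log2 differences of 0.37 to 1.06, where 10.8% of all genes were called higher. Of the 23 genes without it 12 were called higher, with differences of -0.37 to 0.91, as were 4 of the 5 genes whose promoter was not in the table. In reporter-positive tumor cells 3 of the 9 genes with CACGTG and 4 of the 23 without it were called higher in the paired fit, where 10.7% of all genes were, and both sets had a median unpaired log2 difference of 0.14. A match is a description of the letters in this window, and binding was not measured. Windows from 4 of the 6 promoters with a CACGTG before the start and outside annotated exons are shown as examples, 5′ to 3′ on the gene's strand with CACGTG in capitals. Lamp1 is shown for its 4 copies within 81 bases (chr8:13159080-13159160, plus strand), beside Ctsd (chr7:142388047-142388077, minus strand), Ctsf (chr19:4855066-4855111, plus strand) and Glb1 (chr9:114401010-114401055, plus strand), all on GRCm38.p6.
Lamp1: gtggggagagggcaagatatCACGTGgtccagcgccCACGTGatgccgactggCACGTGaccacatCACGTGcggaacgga
Ctsd: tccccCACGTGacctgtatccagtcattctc
Ctsf: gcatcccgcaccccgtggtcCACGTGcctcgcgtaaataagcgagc
Glb1: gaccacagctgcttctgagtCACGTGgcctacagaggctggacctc

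Other lysosomal genes were described from lists with no member in common with the 37. The V-ATPase list had 11 of 16 genes called higher and 1 lower (Atp6v0a2) in the paired fit in FceRIa-positive macrophages, against 10.8% of all genes higher and 10.2% lower, shares that also apply to the lists that follow, and 15 of 16 unpaired log2 differences were positive, with a median of 0.30 against -0.004 over all genes. Atp6v1a, a subunit that binds ATP, averaged 315 ± 23.5 CPM in positive and 213 ± 13.4 CPM in negative libraries (SD, n = 3 each). Other hydrolases had 14 of 27 genes called higher, while those called lower, among them Arsb, Ctse and Ctsw, are not counted here. Galc, the galactosylceramidase, averaged 175 ± 11.8 CPM in positive and 74.1 ± 22.9 CPM in negative libraries, and Acp5, the tartrate-resistant phosphatase, 858 ± 119 CPM in positive and 499 ± 32.3 CPM in negative libraries. Other membrane proteins had 11 of 17 tested genes called higher and 1 lower (Abca2). Slc11a1, a metal ion transporter of phagosomes, averaged 241 ± 34.6 CPM in positive and 145 ± 24.3 CPM in negative libraries.

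Genes that sort enzymes to lysosomes through mannose 6-phosphate had 5 of 13 called higher and 0 lower in the paired fit. Genes that control TFEB, listed together with its relative Tfec, had 8 of 16 called higher and 0 lower, with 16 of 16 differences positive. Among them Tfec, a relative of Mitf restricted largely to macrophages, averaged 119 ± 7.43 CPM in positive and 64.6 ± 6.02 CPM in negative libraries, and Flcn, which regulates the Rag GTPases, 114 ± 9.79 CPM in positive and 69.0 ± 12.7 CPM in negative libraries. The paired log2 difference was 0.89 ± 0.0721 for Tfec and 0.73 ± 0.0822 for Flcn (adjusted p = 0.000274 and 0.000885). Of 5 tested cathepsin inhibitors 3 were called higher (Cstb, Cst7 and Serpinb6a) and 2 lower (Cst3 and Cst6). Cst3, the secreted cystatin C, averaged 2422 ± 526 CPM in positive and 3929 ± 592 CPM in negative libraries, with a paired log2 difference of -0.71 ± 0.125 (adjusted p = 0.00572). Autophagy genes had 2 of 18 called higher (Wipi1 and Nbr1) and 0 lower, which for the higher calls is about the 10.8% of all genes, with a median difference of 0.10.

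Several marker lists moved with the same comparison, and others overlapped between the groups. The 10 macrophage markers summed to 17231 to 19193 CPM in FceRIa-positive and 10506 to 13709 CPM in FceRIa-negative libraries, with 8 of 10 called higher in the paired fit. Over all genes 10.8% were called higher and 10.2% lower in that fit, shares that also apply to the marker lists that follow. Langerhans and dendritic cell markers summed to 762 to 1010 CPM in positive and 1271 to 1822 CPM in negative libraries, with 6 of 9 tested called lower. Keratinocyte markers summed to 596 to 2634 CPM in positive and 1786 to 4185 CPM in negative libraries, with 8 of 10 called lower, and no marker of these 3 lists was at 0 in any macrophage library. Neutrophil markers summed to 33.1 to 195 CPM in positive and 41.9 to 430 CPM in negative libraries, with 4 of 4 tested called lower. Lymphocyte markers summed to 4.94 to 8.52 and 9.84 to 41.4 CPM, with 4 of 5 tested called lower. Mast cell and basophil markers, which include genes of the cells best known for FceRIa, stood at 34.0, 10.2 and 41.2 CPM in positive against 75.9, 19.8 and 157 CPM in negative libraries, with 4 of 9 tested called lower (Kit, Mcpt8, Ms4a2 and Hdc) and Prss34 at 0 in all 6. Endothelial markers stood at 79.0, 45.1 and 77.1 CPM in positive against 51.1, 31.3 and 42.8 CPM in negative libraries, with 1 of 5 called higher (Pecam1). Only 2 of these 5 had a positive log2 difference, and the median was -0.29. General leukocyte markers, Laptm5 left out, stood at 7130, 7890 and 8699 CPM in positive against 8108, 7998 and 8806 CPM in negative libraries. Fibroblast markers stood at 199, 62.9 and 69.9 CPM in positive against 108, 89.7 and 108 CPM in negative libraries. Osteoclast genes, Acp5 among them, stood at 998, 1260 and 1231 CPM in positive against 926, 970 and 911 CPM in negative libraries. Of 5 tested osteoclast genes 1 had a positive difference, and the median was -0.07. The summed level of the 37 genes was 2.46, 2.41 and 2.66 times that of the macrophage markers in positive libraries of replicates 1, 2 and 3, and 2.59, 2.36 and 2.69 times in negative libraries. Both groups had about the same ratio for the sum, while single genes differed from it. The level of Ctss was 0.262 to 0.347 times the macrophage markers in positive and 0.349 to 0.419 times in negative libraries. That of Laptm5 was 0.0508 to 0.0831 and 0.0564 to 0.123 times, and that of Cd68 0.0335 to 0.0417 and 0.0292 to 0.0335 times. In bulk libraries more cells of a type and more RNA per cell cannot be told apart, and the part of cell composition in the differences above was not tested.

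In tumor cells the differences between reporter-positive and reporter-negative cells were small. Of the 37 genes 36 were tested, Atp6v0d2 having too few counts, and 29 had a positive log2 difference, positive minus negative, against 50.5% of 13604 genes, while 7 had a negative one, against 49.5%. The median was 0.15 over the 36 genes and 0.00 over all genes, and the range was -0.22 (Tfeb) to 0.82 (Cd68). In the unpaired fit 0 of 36 were called in either direction, against 0.573% of all genes higher and 0.235% lower. At an unadjusted p under 0.05, 3 were higher (Ctsf, Tpp1 and Smpd1), against 11.1% of all genes, and 0 were lower, against 8.34%. DESeq2 without pairing called 1 higher (Ctsf), against 5.2% of all genes, and 0 lower, against 3.34%. The paired fit called 10 higher, against 10.7% of all genes, and 0 lower, against 7.34%. DESeq2 with the block called 7 higher, against 7.67% of all genes, without Lamp2, Npc1 and Smpd1. The paired counts were 4 higher and 0 lower without replicate 1, against 7.67% and 3.62% of all genes, and 14 higher and 2 lower (Asah1 and Tfeb) without replicate 2, against 21.5% and 20.6%. Without replicate 3 they were 3 higher and 0 lower, against 5.81% and 2.46%. With replicates 1 and 3 of each group summed, 2 were called higher in the paired fit (Ctsf and Ctsh), against 4.8% of all genes.

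Groups did not overlap for 6 genes that were higher in reporter-positive cells (Ctsf, Ctsz, Cd63, Naglu, Tpp1 and Smpd1), against 14.6% of all genes, and for 1 that was lower (Asah1), against 13.6%. The 6 of 36 lie close to the share over all genes. The positive library was higher in all 3 pairs for 20 of the 37 genes, in 2 pairs for 8, in 1 pair for 3 and in none for 6 (Asah1, Ctsk, Gusb, Lgmn, Neu1 and Psap). The 8 include the untested Atp6v0d2, whose pairs held 1 against 1, 2 against 1 and 0 against 0 counts. Pairs were not counted over all genes, so no share stands beside these counts.

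**Figure D4:**
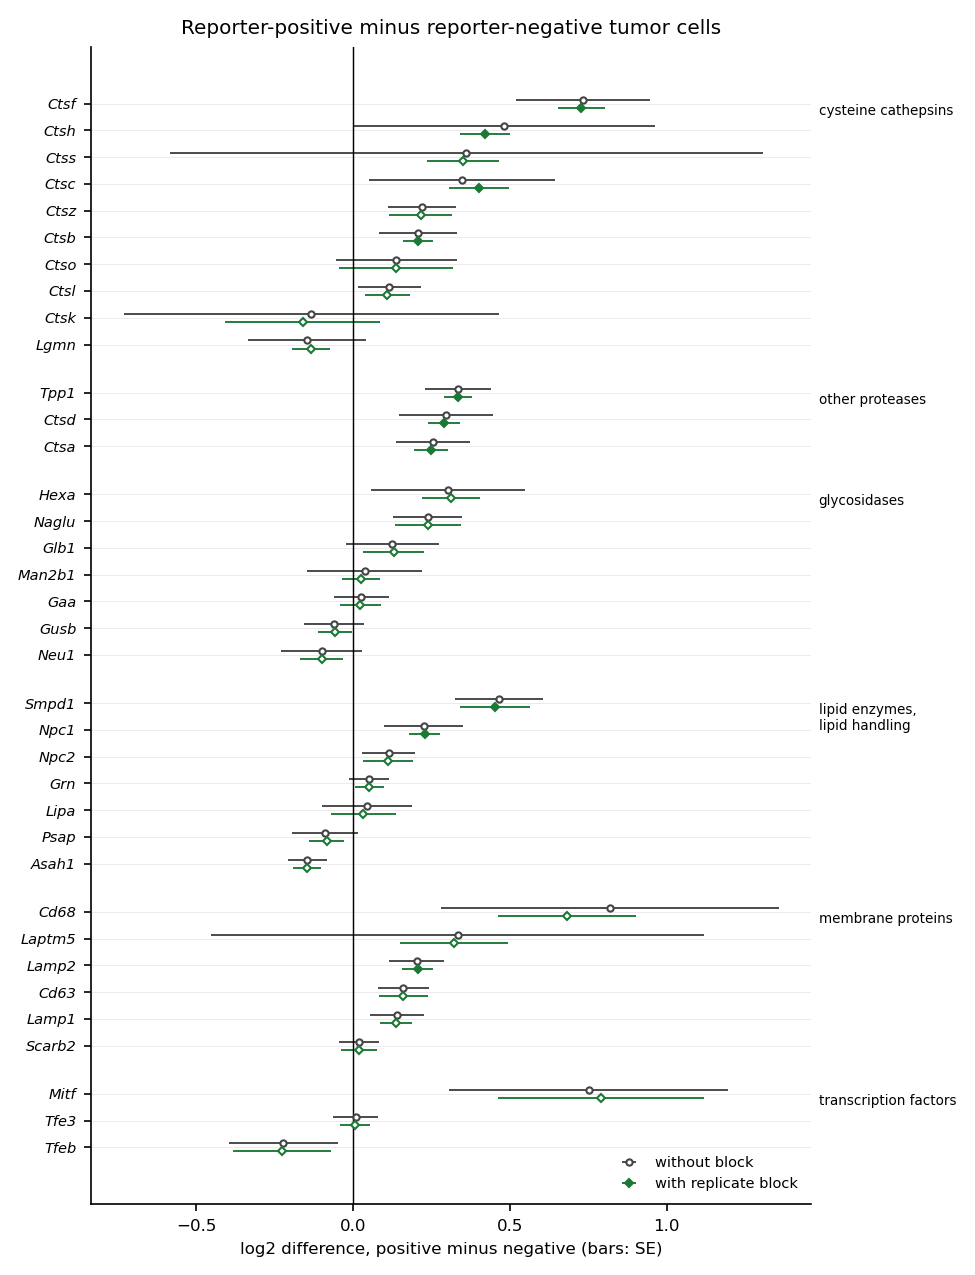
Log2 difference of each of 36 tested genes, reporter-positive minus reporter-negative tumor cells, with SE bars, by role (n = 3 libraries a group). Grey circles are the unpaired fit, none of them filled, and green diamonds the paired fit, filled for the 10 genes with an adjusted p under 0.05. The SE bars of Ctss, Laptm5, Cd68 and Ctsh are much shorter in the paired fit.

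The clearest difference was that of Ctsf, a papain-type cathepsin with a long propeptide, on chromosome 19 from 4855130 to 4860918. It had 15.8, 23.2 and 15.7 CPM in reporter-positive libraries of replicates 1, 2 and 3, against 9.36, 13.6 and 9.98 CPM in reporter-negative ones. The lowest positive library lay above the highest negative one, and the log2 difference was 0.73 ± 0.0744 in the paired fit (adjusted p = 0.00532) and 0.73 ± 0.214 in the unpaired fit (0.138). It was also called in the paired fit without each replicate in turn. Ctsh, an aminopeptidase, had 37.2, 99.0 and 37.9 CPM in positive against 29.5, 63.8 and 31.4 CPM in negative libraries. Ctsb had 618, 770.4 and 628 CPM in positive against 537, 664 and 546 CPM in negative libraries. Ctsc, the activator of granule serine proteases, had 273, 389.6 and 274 CPM in positive against 186, 363 and 187 CPM in negative libraries. In all 3, replicate 2 was the highest of its group and the groups overlapped, with paired log2 differences of 0.42 ± 0.0800 for Ctsh, 0.21 ± 0.0479 for Ctsb and 0.40 ± 0.0968 for Ctsc (adjusted p = 0.0203, 0.0343 and 0.0377).

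All 3 other proteases were called in the paired fit. Tpp1 had 167, 141 and 166 CPM in positive against 135, 110.3 and 130.1 CPM in negative libraries. Ctsd had 459, 609 and 453 CPM in positive against 377, 476 and 386 CPM in negative libraries. Ctsa had 96.2, 124 and 98.0 CPM in positive against 83.0, 97.0 and 86.8 CPM in negative libraries. The groups were apart for Tpp1 and overlapped for Ctsd and Ctsa through replicate 2, with paired log2 differences of 0.34 ± 0.0456, 0.29 ± 0.0512 and 0.25 ± 0.0546 (adjusted p = 0.00922, 0.0169 and 0.0294).

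Among lipid genes Smpd1 had 11.4, 15.5 and 11.8 CPM in positive against 9.45, 9.39 and 9.13 CPM in negative libraries. Npc1 had 66.8, 54.6 and 66.1 CPM in positive against 58.7, 45.1 and 56.5 CPM in negative libraries. Of these, Smpd1 had groups that were apart and Npc1 had groups that overlapped because replicate 2 was low in both, and the paired log2 differences were 0.45 ± 0.110 and 0.23 ± 0.0494 (adjusted p = 0.0389 and 0.0280). Among membrane proteins Lamp2 had 181, 195 and 178 CPM in positive against 151, 179 and 152 CPM in negative libraries, and its paired log2 difference was 0.21 ± 0.0502 (adjusted p = 0.0388). No glycosidase was called in either fit. Asah1 had 81.6, 76.2 and 82.4 CPM in positive against 91.4, 84.3 and 89.99 CPM in negative libraries, the one gene lower in all positive libraries than in any negative library, and it was not called (paired log2 difference -0.15 ± 0.0455, adjusted p = 0.0740).

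Among the genes that differed most between the cell types, Ctss, Laptm5 and Cd68 varied by replicate number in tumor cells. Ctss had 2.59, 13.6 and 2.34 CPM in positive against 2.13, 10.6 and 1.76 CPM in negative libraries. Laptm5 had 1.52, 6.04 and 1.49 CPM in positive against 1.48, 4.78 and 0.964 CPM in negative libraries. Cd68 had 3.79, 10.95 and 2.95 CPM in positive against 2.50, 4.75 and 2.81 CPM in negative libraries. All 3 were highest in replicate 2 of both groups. The summed macrophage markers showed the same order, with 34.0, 84.1 and 33.3 CPM in positive against 27.9, 62.5 and 27.1 CPM in negative libraries, and none of the 10 was at 0 in any tumor cell library. Fibroblast markers were also highest in replicate 2, with 47.9, 157 and 36.4 CPM in positive against 67.8, 122 and 39.5 CPM in negative libraries. General leukocyte markers, Laptm5 left out, stood at 24.5, 75.1 and 24.8 CPM in positive against 36.3, 63.0 and 33.4 CPM in negative libraries, so the positive library was the higher one in replicate 2 alone. Neutrophil markers stood at 94.3, 377 and 93.5 CPM in positive against 50.8, 81.9 and 58.8 CPM in negative libraries, with Camp at 0 in all 6. The sum did not speak for the whole list, since 2 of its 4 tested genes had a positive log2 difference. Ly6g was at 0 in positive replicates 2 and 3, and Retnlg in negative replicate 2. The level of Ctss was 0.0649 to 0.170 times the summed macrophage markers in tumor cell libraries and 0.262 to 0.419 times in macrophage libraries, and that of Laptm5 0.0356 to 0.0765 times and 0.0508 to 0.123 times. None of Ctss, Laptm5 and Cd68 was called in the paired fit (adjusted p = 0.0839, 0.245 and 0.0809). The part of macrophage RNA in these values was not tested.

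**Figure D5:**
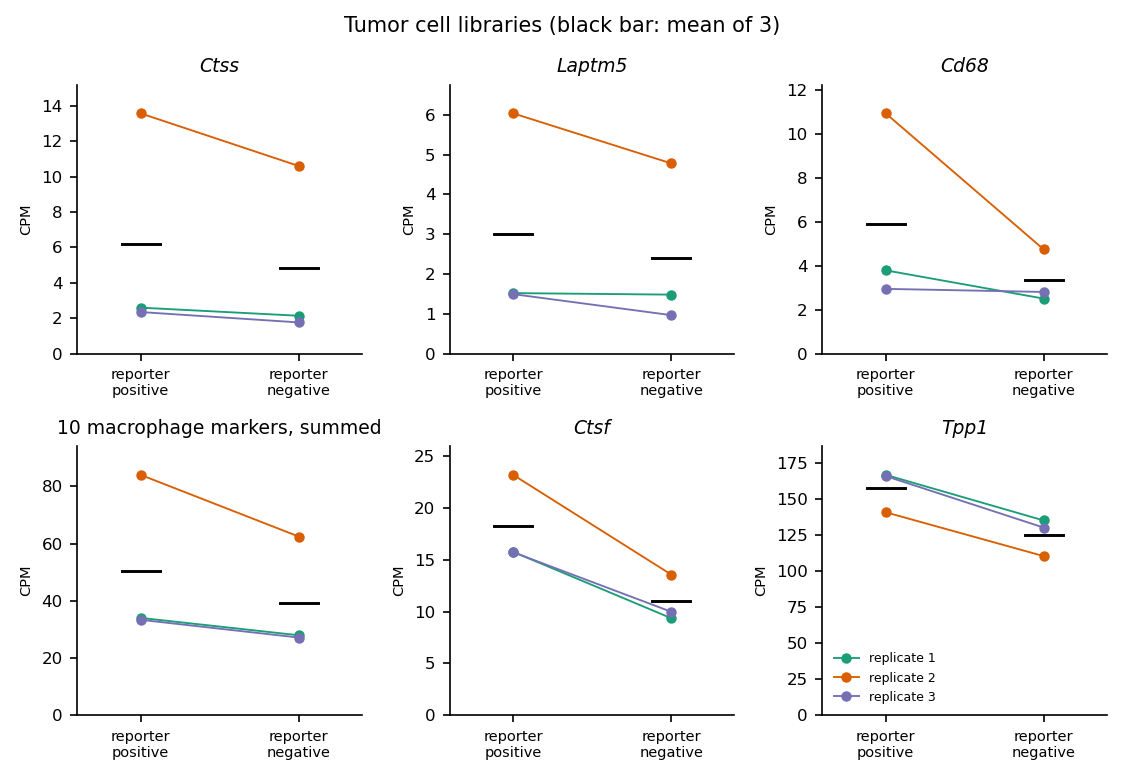
CPM in the tumor cell libraries, reporter-positive at left and reporter-negative at right, with lines joining libraries of the same replicate number and black bars at the means of 3. Ctss, Laptm5, Cd68 and the sum of 10 macrophage markers are highest in replicate 2 of both groups, while Ctsf and Tpp1 are higher in the positive library of all 3 pairs and their groups are apart.

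The remaining named genes showed little. Ctsl had 431, 532 and 425 CPM in reporter-positive against 414, 434 and 433 CPM in reporter-negative libraries, and Ctsk 0.506, 1.21 and 0.355 CPM in positive against 0.512, 1.31 and 0.482 CPM in negative libraries. For the transcription factors, Tfe3 had 64.1, 68.2 and 59.3 CPM in positive against 62.7, 66.5 and 61.3 CPM in negative libraries. Tfeb had 4.08, 5.44 and 4.26 CPM in positive against 6.17, 5.14 and 4.76 CPM in negative libraries. Mitf had 1.17, 0.951 and 0.782 CPM in positive against 0.598, 0.884 and 0.255 CPM in negative libraries. All 5 overlapped between the groups, and none was called in either fit over all 3 replicates, the paired adjusted p values being 0.335 for Ctsl, 0.696 for Ctsk, 0.939 for Tfe3, 0.361 for Tfeb and 0.146 for Mitf. The other 17 tested genes, Ctsz among them, had unpaired log2 differences between -0.15 and 0.30 and were not called.

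Around these genes, the V-ATPase list had 16 of 16 positive log2 differences in tumor cells, with a median of 0.29 against 0.00 over all genes, and 8 of 16 genes were called higher and 0 lower in the paired fit, against 10.7% of all genes higher and 7.34% lower, shares that also apply to the lists that follow. Atp6v0a1 averaged 46.0 ± 3.67 CPM in reporter-positive and 33.7 ± 0.559 CPM in reporter-negative libraries, and Atp6v1b2 263 ± 40.3 CPM in positive and 170 ± 7.66 CPM in negative libraries (SD, n = 3 each). The autophagy list had 18 of 18 positive differences with a median of 0.19, and 7 were called higher and 0 lower in the paired fit. Atg9b, a lipid scramblase of autophagosome formation, averaged 90.9 ± 4.69 CPM in positive and 41.1 ± 4.63 CPM in negative libraries and was called in both fits (log2 difference 1.14, unpaired adjusted p = 0.0341). Other hydrolases had 6 of 25 called higher in the paired fit, among them Hyal1, a hyaluronidase, at 35.8 ± 5.62 CPM in positive and 20.8 ± 1.14 CPM in negative libraries. Other membrane proteins had 4 of 17 called higher, genes that control TFEB 2 of 14 (Flcn and Fnip2), sorting genes 1 of 13 (Sort1) and cathepsin inhibitors 2 of 4 (Cstb and Cst6), with 0 called lower in any of these lists. The counts of the sorting genes and of the genes that control TFEB lie near the share over all genes.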

How the data were processed

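Per the labels' protocols, Trizol RNA of the sorted cells went into TruSeq v2 libraries. The authors deposited whole-number read counts for each gene, without normalization. The submitters' processing notes name FastQC, STAR and the build mm10 (GRCm38), while no source used here names the counting tool or its strand setting. Of the counted columns, 4 belong to no sample of the series and were not used. Of 53801 gene IDs 53620 matched GENCODE release M21, which gave coordinates and exon lengths.

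The quasi-likelihood test of edgeR 4.0.16 (R 4.3.3) was run on genes kept by filterByExpr, after scaling with trimmed means of M values and with Benjamini-Hochberg adjustment. Alternatives were DESeq2 1.42.0, a change of scaling or of count filter, the replicate block, and leaving out each library. Scripts were tested on simulated data. Deviations from group means correlated at 0.688, 0.787 and 0.734 between same-numbered macrophage libraries and at 0.449, 0.703 and 0.488 between same-numbered tumor libraries, so the numbers, which come from the sample titles, were taken as pairs. In the tumor cells numbers 1 and 3 were not distinguished from each other, since reporter-positive replicate 3 and reporter-negative replicate 1 correlated at 0.488. The median log2 difference of the 37 genes with the block was 0.424 in macrophages and 0.149 in tumor cells.

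The genes and lists were chosen with earlier results of these data known. Values of every library are given for the transcription factors, Ctsb, Ctsd, Ctsl, Ctss, Ctsk and Atp6v0d2, and for up to 12 called genes per comparison with the smallest unpaired p. Those of Laptm5, Cd68, Ctsz and Asah1 in tumor cells were chosen after their values were seen. Of the other lists, genes among the 4 with the smallest p were named, along with those that complete a small count. The result of 1 gene of the other hydrolases is not reported here.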

Additional observations from a re-analysis of the deposited data

How the results depend on the processing

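In the comparison of macrophages with tumor cells every call among the 37 genes was the same under all alternatives run. Without pairing, 0 of the 37 were called in tumor cells and 0 in macrophages, and the replicate block gave 10 higher in tumor cells, and 25 higher and 1 lower in macrophages. Over all genes the block gave 1450 higher and 999 lower in tumor cells and 1618 higher and 1524 lower in macrophages, against 78 and 32, and 0 and 0, without it. DESeq2 without the block gave 708 higher and 455 lower genes with 1 lysosomal gene in tumor cells, and 658 higher and 605 lower with 13 in macrophages. With no filter on low counts 173 genes were higher in tumor cells, and 292 higher and 331 lower in macrophages with 7 lysosomal genes. Leaving out 1 library gave 0 to 391 higher and 0 to 230 lower genes in tumor cells, and 0 to 2 lower in macrophages. With tumor replicates 1 and 3 summed, an alternative chosen after seeing the data, the counts were 0 and 0 without the block, and 691 higher and 244 lower with 2 lysosomal genes with it. In the paired fits DESeq2 gave 1043 higher and 644 lower genes with 7 lysosomal genes in tumor cells, losing Lamp2, Npc1 and Smpd1, and 1445 higher and 1362 lower with 29 and 1 in macrophages, adding Ctsh, Ctsz, Psap and Npc2. Leaving out 1 replicate number gave 803 to 2927 higher and 340 to 2802 lower genes with 3 to 14 lysosomal genes higher and 0 to 2 lower in tumor cells, and 626 to 1743 higher and 691 to 1606 lower with 13 to 25 and 0 to 1 in macrophages. Signs turned in some fits. In tumor cells Tfe3 was -0.0039 with upper-quartile factors, and with replicates 1 and 3 summed Gaa was -0.00463 and Scarb2 -0.0145 unpaired, and -0.00758 and -0.0123 with the block. Leaving out 1 library from the unpaired tumor fit gave -0.151 to 0.928 for Ctsh, -0.814 to 0.474 for Ctsk, -0.00393 to 0.172 for Ctsl, -0.965 to 1.66 for Ctss, -0.0331 to 0.0995 for Gaa, -0.000102 to 0.197 for Glb1, -0.117 to 0.0300 for Gusb, -0.673 to 1.3 for Laptm5, -0.291 to 0.0652 for Lgmn, -0.11 to 0.148 for Lipa, -0.175 to 0.17 for Man2b1, -0.15 to 0.0136 for Psap, -0.00865 to 0.0647 for Scarb2 and -0.049 to 0.057 for Tfe3. Leaving out 1 replicate number from the paired tumor fit gave -0.0968 to 0.278 for Ctso, -0.0189 to 0.0855 for Gaa, -0.0991 to 0.0963 for Lipa, -0.0363 to 0.0753 for Man2b1, -0.0053 to 0.181 for Npc2, -0.0135 to 0.0792 for Scarb2 and -0.0123 to 0.033 for Tfe3. In macrophages the ranges were -0.00824 to 0.154 for Gusb, -0.0239 to 0.421 for Laptm5 and -0.152 to 0.403 for Man2b1 without 1 library, and -0.0103 to 0.833 for Ctsk in the paired fit without 1 number. The cause of these changes was not tested. Each fit has 3 libraries a group, and genes at a few counts, such as Atp6v0d2 in tumor cells, cannot be compared at this depth.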
